A study of Mus musculus with 4 samples.

Results

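Chromatin remodeller genes were followed through mouse preimplantation development in single-cell long-read data. They were taken by symbol as a list of 10 genes out of 20171 in the gene table (Smarca4, Smarca2, Smarcb1, Smarcc1, Arid1a, Smarca5, Chd1, Chd4, Ino80 and Supt16), and their 89 isoforms out of 68012 in the isoform table were taken with them. The material came from C57BL/6J females that had received gonadotropins and, except for the unmated females that gave MII oocytes, had been mated with DBA/2 males. The labels give the strain as DBA/2J x C57BL/6J and the methods name DBA/2NCrl males. All groups were untreated wild-type cells, taken as oocytes and zygotes, as blastomeres from the early 2-cell (E2C) and late 2-cell (L2C) stages through the 4-cell, 8-cell and 16-cell to the 32-cell stage, and as cells of blastocysts. The established embryonic stem cell line E14 Tg2A (mESCs) was added to them. Single cells were amplified with gel-bead reverse transcription primers, and the cDNA of many cells was pooled for each of 4 PacBio runs by HIT-scISOseq, a method that reads joined full-length cDNAs.

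The column names assign 121 of the 161 cells to 43 oocytes, zygotes and embryos. There were 10 oocytes and 9 zygotes, and the 2-cell stage was covered by 5 embryos in E2C and 6 in L2C. The 4-cell stage had 5 embryos and the 8-cell and 16-cell stages 4 each. The mean over the cells of an embryo was used as 1 replicate, and no source used here says which embryos shared a mother, so the p-values cover only the spread between these embryos. The 22 32-cell, 13 blastocyst and 5 mESC columns name no embryo and are given as ranges over cells without a test. Levels are copies per 100,000 UMIs (unique molecular identifiers, tags that mark single cDNA molecules) and so are relative to the total of a cell, from which a change in the amount of RNA per cell cannot be told. A cell held 4985 to 389775 UMIs with a median of 38914, and the medians per stage fell from 246466 in zygotes to 22726 in mESCs. In L2C embryo 1, a single cell with 17971 UMIs, 1 UMI was worth 5.56 copies, and Smarcb1, Smarcc1, Chd1, Chd4 and Ino80 were all at 0 there. Cell identity was checked with marker lists. Per cell, the summed level of 6 oocyte markers was 3096 to 4259 in oocytes, 503 to 907 in E2C and 39.97 to 218 in L2C. The 5 inner cell mass and stem cell markers summed to 137 to 284 in mESCs and to 99.1 at most in blastocyst cells. In 16-cell blastomeres they reached 147, above the lowest mESC. The 5 2-cell markers had medians of 6.70 in E2C, 7.84 in L2C and 9.95 in 4-cell blastomeres, and did not separate E2C from L2C. Medians of the 5 trophectoderm markers were 37.7 in 16-cell blastomeres, 31.1 in blastocyst cells and 10.9 in mESCs. The oocyte markers were still at 87.4 to 184 in mESCs, with Bmp15 at 0, and the 4 of 6 cumulus cell markers found in the table summed to 0.508 at most in oocytes, 1.82 in zygotes and 5.20 in 16-cell blastomeres (Inha) and to 0 at the other stages.

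Chromatin remodellers move, eject or restructure nucleosomes with energy from ATP, and so set which DNA the transcription machinery can reach. SWI/SNF complexes are built around 1 of the ATPases BRG1 (Smarca4) and BRM (Smarca2) and share core subunits such as SMARCB1 and SMARCC1, while ARID1A defines the BAF form. SNF2H (Smarca5) is the ATPase of ISWI complexes, which space nucleosomes, CHD1 works on transcribed genes, CHD4 drives the deacetylase-containing NuRD complex, and INO80 acts on H2A.Z nucleosomes. SPT16 (Supt16) is a histone chaperone and a subunit of FACT, not an ATPase. In the mouse, maternal RNA is cleared while the embryonic genome starts transcription, with the main wave at the late 2-cell stage, and BRG1 supplied by the oocyte is known to be needed for that wave.

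The sequences below mark the transcript ends and junctions on which the isoform results turn. They were read from GENCODE transcripts on GRCm38. In the first 3, the last 30 bases before a 3′ end, capitals mark the hexamer AATAAA, the usual polyadenylation signal. These are the ends of Smarca5 at its distal site (chr8:80699946-80699975, minus strand) and at a proximal site (chr8:80700822-80700851, minus strand), and of Smarca4 (chr9:21703341-21703370, plus strand), all in the 3′ UTR.
Smarca5 distal end: tcgtgAATAAAtataacttttataatcctt
Smarca5 proximal end: cttcatttattAATAAAtgtttcatttgat
Smarca4 end: gtAATAAAttaaagcaatgacaagccacca
For Smarca2 (plus strand of chromosome 19), the junction of the alternative first exon with the next exon (capitals) is shown because the most abundant isoforms carried it, the 54-base exon because it distinguishes isoform 19, and the end of isoform 12 because it was the end that became rare after the zygote. In that sequence the lower-case bases are the last 30 of the exon in which isoform 12 stopped, and the capitals are the first 30 of the next coding exon.
Smarca2 first junction: cagcattgtggaagtGCCATCGAAGACGGC
Smarca2 54-base exon: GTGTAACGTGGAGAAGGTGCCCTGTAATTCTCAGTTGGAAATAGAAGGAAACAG
Smarca2 isoform 12 end: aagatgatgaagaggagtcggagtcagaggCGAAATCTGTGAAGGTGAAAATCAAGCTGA

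The step from E2C to L2C moved the most members. Smarca4, Smarcc1, Chd1 and Ino80 rose, Smarca2 and Chd4 fell, and the other 4 did not pass. A gene was called at an absolute log2 fold change above 1 with an unadjusted p under 0.01 by limma, on log2(copies + 1), and adjusted p-values (Benjamini-Hochberg) run over all 11682 genes tested. All 10 members passed the filter on low values. The 6 members called stand beside 48.4% of all genes (25.6% higher and 22.8% lower), so a call at this step was common in the whole transcriptome. DESeq2 also called 6, but with Arid1a (log2 −1.08) in place of Ino80, and edgeR called 5, without Ino80. Between zygote and E2C, 1 member was called (Smarca2, higher) beside 7.27% of all genes. None was called from oocyte to zygote (3.24% of all genes), from L2C to 4-cell (6.69%), from 4-cell to 8-cell (15%) or from 8-cell to 16-cell (3.36%). At an unadjusted p under 0.05 these 4 steps held 5, 1, 3 and 1 members, edgeR called 1, 1, 0 and 0 (Smarca2 both times), and DESeq2 called none. Over the whole span from oocyte to 16-cell 4 members were called, Smarca4 and Smarcc1 higher and Smarca2 and Arid1a lower, beside 50.8% of all genes. The values of these 4 did not overlap between the stages, as for 39.6% of all genes. The median of all genes moved with the scaling: under TMM factors it went from 0.11 to 0 between zygote and E2C, from 0.03 to −0.11 between E2C and L2C, and from −0.16 to 0 between 4-cell and 8-cell. The share of called genes that were higher went with it, from 62.2% to 35.4% at the first of these steps, from 52.9% to 45.3% at the second and from 29.8% to 52.5% at the third. The called members other than Ino80 kept their calls under TMM factors.

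**Figure D1:**
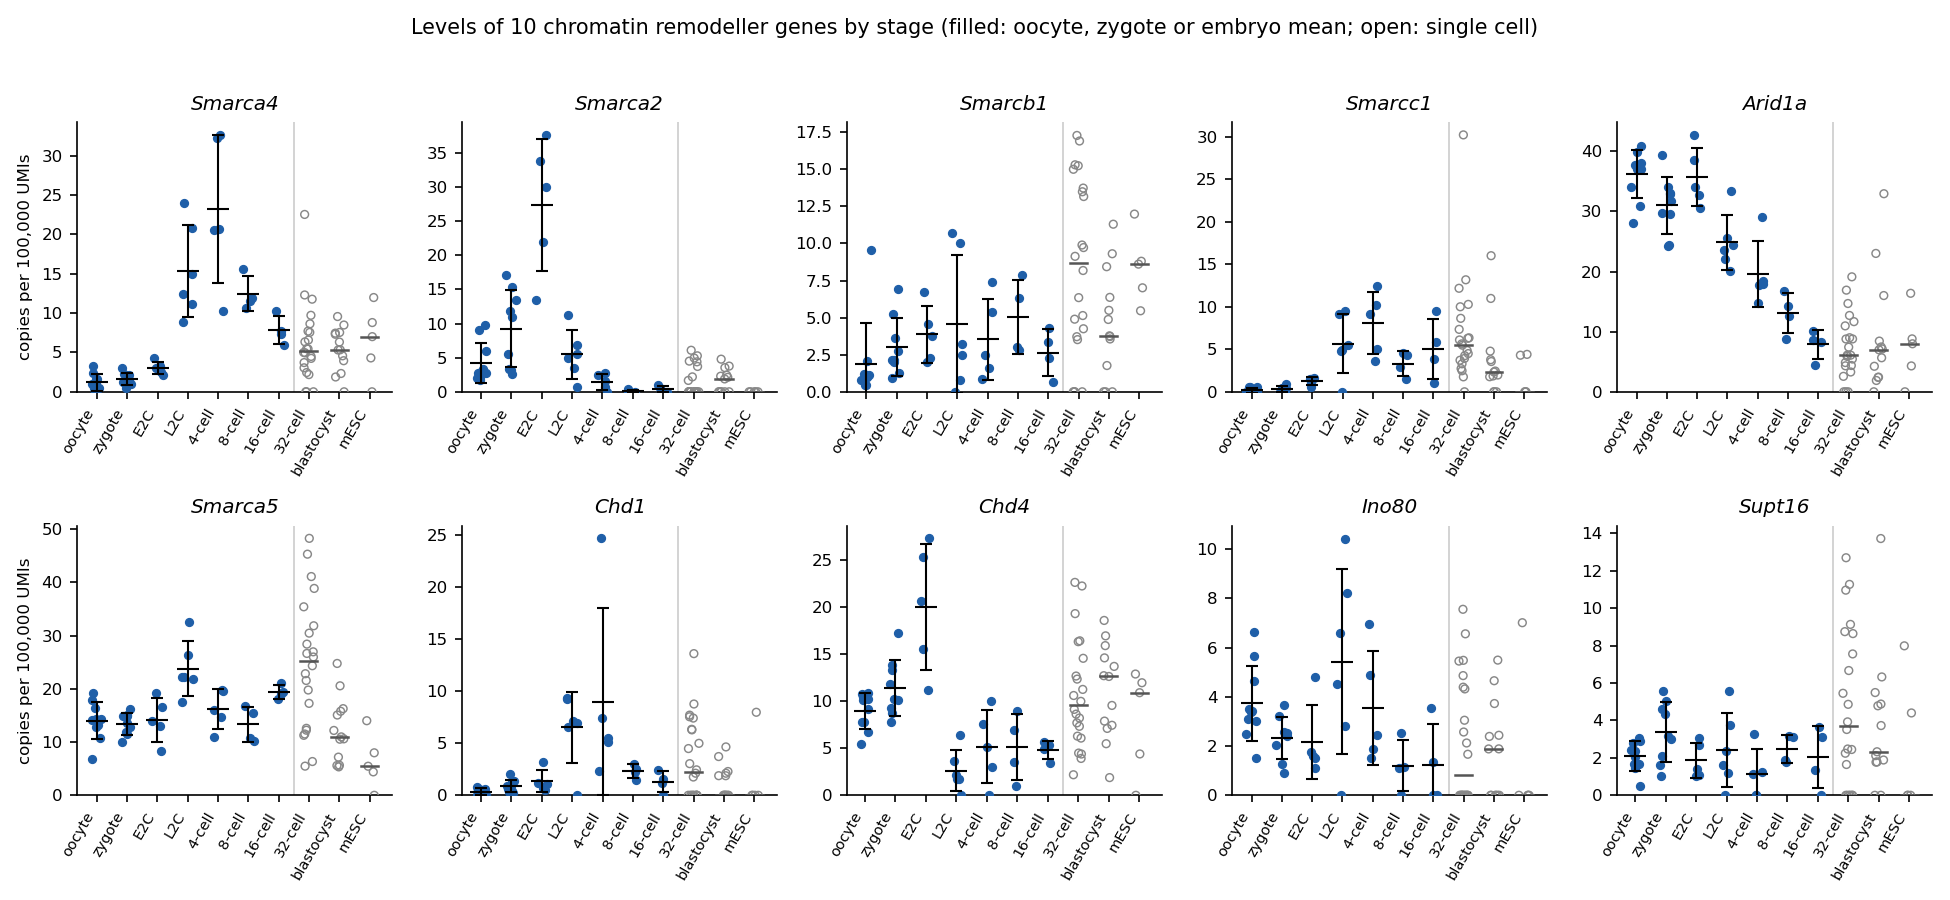
Levels of the 10 genes in copies per 100,000 UMIs (y axes) by stage (x axes). Filled points are oocytes, zygotes or embryo means with the stage mean and SD, open points are single cells with their median; Smarca2 peaks in E2C at 13.5 to 37.7 and Smarca4 in 4-cell embryos at 10.2 to 32.6.

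**Figure D2:**
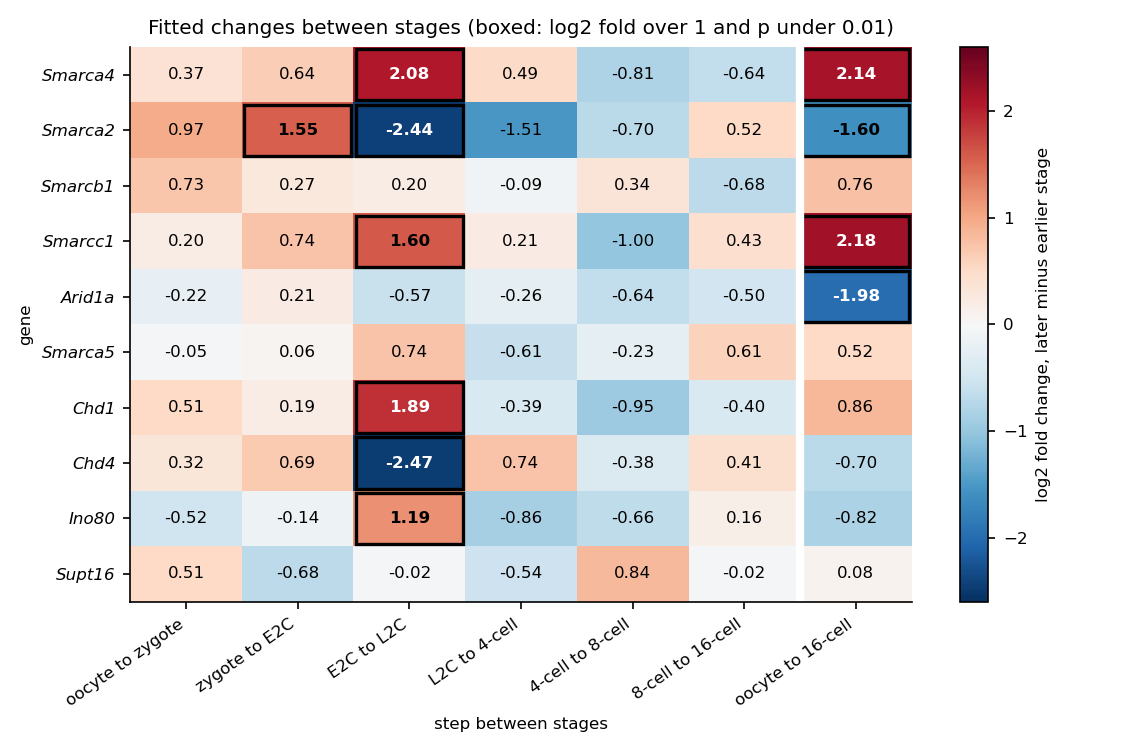
Fitted log2 fold changes on log2(copies + 1), later minus earlier stage, for 10 genes (rows) and 7 steps (columns). Boxes mark the 11 called values, 6 of which lie in the step from E2C to L2C.

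The RNA levels of both SWI/SNF ATPase genes changed, and they went in opposite directions at the late 2-cell stage. Smarca4 (chr9:21616169-21704230, plus strand) ranged from 0 to 3.33 in oocytes (median 1.10) and from 0.454 to 3.02 in zygotes (median 1.44). It was 4.25, 2.47, 2.11, 3.03 and 3.22 in the 5 E2C embryos and 8.82 to 24.0 (median 13.7) in the 6 L2C embryos. Every L2C embryo was above every E2C embryo. The rise was 2.08 on the log2 scale (± 0.39 SE, limma adjusted p = 7.94e-06). The level was 20.5, 32.3, 10.2, 20.7 and 32.6 in 4-cell embryos, 10.7, 11.6, 11.98 and 15.6 in 8-cell embryos, and 7.75, 5.95, 7.35 and 10.3 in 16-cell embryos. The 8-cell and 16-cell values did not overlap, but this step was not called (log2 −0.64 ± 0.40 SE, limma adjusted p = 0.62). Single 32-cell, blastocyst and mESC cells had medians of 5.23, 5.34 and 7.01.

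Smarca2 (chr19:26605050-26778322, plus strand) encodes BRM, and its gene level was highest in E2C. This level also counts short isoforms, described below, that hold at most 15.5% of the coding bases and lack the ATPase domain. In E2C, 76.1% of 109 Smarca2 isoform UMIs held the internal start codon of such isoforms. The gene level is therefore not a level of full-length BRM transcripts. Oocytes held 1.66 to 9.77 copies (median 2.92) and zygotes 2.57 to 17.05 (median 10.9). The oocyte to zygote difference was just under the fold limit and so was not called, with an adjusted p that passed 0.05 (log2 0.97 ± 0.27 SE, limma adjusted p = 0.00836). The 5 E2C embryos held 30.0, 33.9, 37.7, 22.0 and 13.5 copies. All but 1 of them were above the highest zygote, and the rise was called (log2 1.55 ± 0.37 SE, limma adjusted p = 0.00200). The 6 L2C embryos held 0.736 to 11.3 (median 5.25), all below the lowest E2C embryo, a fall of 2.44 (± 0.51 SE, limma adjusted p = 3.94e-05). The 4-cell embryos held 2.69, 2.45, 1.58, 0.662 and 0, the 8-cell embryos 0, 0, 0 and 0.395, and the 16-cell embryos 1.04, 0.570, 0 and 0. These late values rest on 6, 1 and 7 UMIs in all. No UMI was found in the 103590 of the 5 mESCs, which allows a level of up to 2.90 copies (3 UMIs, counting error only). Gm20616 and 4931403E22Rik on the other strand overlap Smarca2.

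Of the core subunit genes, Smarcc1 was called from E2C to L2C and Smarcb1 was not, and the difference between them was not tested. Smarcc1 (BAF155, chr9:110117708-110240178, plus strand) was at 0 in 7 of 10 oocytes and reached 0.600 at most, and zygotes held 0 to 0.930. The 5 E2C embryos held 0.547, 1.05, 1.49, 1.52 and 1.61 copies, and the L2C embryos 0 to 9.46 (median 5.19). The 5 other L2C embryos were all above the E2C embryos, and the rise was 1.596 (± 0.38 SE, limma adjusted p = 0.000254). It held 10.3, 12.5, 5.09, 3.65 and 9.17 copies in 4-cell embryos and 0.986 to 9.49 in 16-cell embryos. The whole change from oocyte to 16-cell was 2.18 (± 0.30 SE, limma adjusted p = 4.53e-09) on the log2(copies + 1) scale, with no overlap between these stages. That scale understates the change of a gene so low in oocytes, and on the recovered UMIs it was 4.65 by edgeR and 4.71 by DESeq2. Smarcc1 overlaps Dhx30 and Gm23377 on the other strand.

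Smarcb1 (SNF5, chr10:75896769-75921617, minus strand) showed no called step. Oocytes had a median of 1.07 copies and zygotes one of 2.16. L2C embryos ran from 0 to 10.7, with a median of 2.85. E2C embryos held 2.29, 6.73, 4.55, 2.00 and 3.77 copies, within the L2C range. Its E2C to L2C change was 0.20 (95% interval −0.79 to 1.19), an interval that includes both 0 and the fold limit of 1. Single 32-cell cells had a median of 8.65 and mESCs one of 8.61.

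Arid1a (chr4:133679008-133756769, minus strand), which gives the BAF complex its DNA-binding ARID subunit, was lower in 16-cell embryos than in oocytes. Oocytes held 28.1 to 40.9 copies (median 37.3), zygotes 24.2 to 39.4 (median 31.7), and E2C embryos 30.5, 42.7, 38.6, 32.8 and 34.0. L2C embryos held 20.1 to 33.4 (median 24.0). No adjacent step was called by limma, and which of them was larger depended on the scaling. From E2C to L2C the difference was −0.57 (log2, ± 0.26 SE, limma adjusted p = 0.0542), −0.91 under TMM factors (limma adjusted p = 0.00181), −0.94 by edgeR and −1.08 by DESeq2, which called it (adjusted p = 7.22e-07). From 4-cell to 8-cell it was −0.64 (± 0.28 SE, limma adjusted p = 0.116), but −0.28 under TMM factors, −0.40 by edgeR and −0.57 by DESeq2. The 4-cell embryos held 29.1, 14.7, 17.9, 17.8 and 18.5 copies, the 8-cell embryos 12.6, 14.2, 16.8 and 8.73, and the 16-cell embryos 10.1, 4.53, 8.28 and 8.58. All 16-cell embryos were below all oocytes, a fall of 1.98 (± 0.21 SE, limma adjusted p = 9.59e-13). These levels rest on 2322 Arid1a UMIs over all 161 cells.

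Smarca5 (chr8:80698507-80739497, minus strand) had no called step. Oocytes held 6.82 to 19.2 copies (median 14.3), zygotes 10.1 to 16.3 (median 13.5) and E2C embryos 8.28, 19.2, 16.6, 13.99 and 12.96. L2C embryos held 17.6 to 32.6 (median 22.3), and the E2C to L2C difference passed the adjusted p but not the fold limit (log2 0.74 ± 0.29 SE, limma adjusted p = 0.0272). It did not pass under TMM factors (log2 0.41, limma adjusted p = 0.226), by edgeR (log2 0.34, adjusted p = 0.355) or by DESeq2 (log2 0.21, adjusted p = 0.464). The 8-cell embryos held 16.7, 10.8, 15.4 and 10.2 and the 16-cell embryos 21.1, 19.1, 19.5 and 18.02. These did not overlap, yet the adjusted p was 0.432 by limma. Not overlapping was a property of 2 members at this step (the other was Smarca4), against 3.54% of all genes. It was a property of 3 members from E2C to L2C, against 27.6% of all genes. Smarca5 overlaps Gm45872 on its own strand.

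Of the CHD genes, Chd1 rose and Chd4 fell at the late 2-cell stage. Chd1 (chr17:15704967-15772610, plus strand) was at 0 to 0.833 in oocytes (median 0.486) and 0.257 to 2.06 in zygotes (median 0.847). E2C embryos held 1.199, 0.7095, 1.09, 0.551 and 3.22 copies, and L2C embryos 0 to 9.39 (median 7.01). All L2C embryos but the shallow embryo 1 were above all E2C embryos, and the rise was 1.89 (± 0.39 SE, limma adjusted p = 3.49e-05). The 4-cell embryos held 7.39, 24.7, 5.14, 2.32 and 5.52, the 8-cell embryos 1.48, 2.55, 3.03 and 2.22, and the 16-cell embryos 1.59, 2.45, 1.17 and 0. The highest 4-cell value rests on 7 UMIs.

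Chd4 (chr6:125095981-125130591, plus strand), the NuRD ATPase, held 5.47 to 10.8 copies in oocytes (median 9.66) and 7.75 to 17.3 in zygotes (median 10.3). E2C embryos held 11.2, 27.4, 20.7, 15.6 and 25.3, and L2C embryos 0 to 6.42 (median 1.99). Every L2C embryo was below every E2C embryo, a fall of 2.47 (± 0.38 SE, limma adjusted p = 1.42e-07). Without the shallow L2C embryo 1 the fall was 2.37. The 4-cell embryos held 10.0, 0, 5.14, 7.61 and 3.03, the 8-cell embryos 3.53, 6.97, 9.02 and 1.02, and the 16-cell embryos 5.66, 3.41, 4.89 and 5.35. Median levels in single cells were 9.57 at the 32-cell stage, 12.6 in blastocysts and 10.9 in mESCs. The summed oocyte markers fell over the same step as Smarca2 and Chd4, to a median of 2.79% of the oocyte median in L2C blastomeres from 18.7% in E2C blastomeres, and their part in these falls was not tested.

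Ino80 (chr2:119373042-119477687, minus strand) held 1.52 to 6.63 copies in oocytes (median 3.39) and 0.908 to 3.65 in zygotes (median 2.48). E2C embryos held 4.79, 1.76, 1.09, 1.52 and 1.61 and L2C embryos 0 to 10.4 (median 5.56), so these stages overlapped. The rise was called (log2 1.19 ± 0.43 SE, limma adjusted p = 0.0144), but 14 of 33 other settings lost the call, among them TMM factors (log2 0.92), no array weights (log2 0.78), edgeR and DESeq2, and the removal of any of E2C embryos 2 to 5 or of L2C embryos 2, 5 or 6. The 8-cell embryos held 2.53, 1.10, 0 and 1.15 copies and the 16-cell embryos 3.56, 1.36, 0 and 0. Supt16 (chr14:52160414-52197416, minus strand) showed no called step. It held 0.508 to 3.09 copies in oocytes, 1.03 to 5.58 in zygotes, and 1.09, 1.42, 3.06, 1.03 and 2.70 in E2C embryos. L2C embryos held 0 to 5.56 and 16-cell embryos 3.10, 3.67, 1.38 and 0. It overlaps Rpgrip1 on the other strand.

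Other subunits of these and related complexes, and other SNF2 family genes, were taken from lists of 90 genes, of which 86 could be tested. From E2C to L2C 21 of them were higher and 16 lower, beside 25.6% and 22.8% of all genes. In the INO80, SRCAP and TIP60-p400 list 12 of 29 genes were higher and 4 lower, Ino80 included, and the median change was 0.60 against 0.03 for all genes. Ino80c, an INO80 subunit, had the largest rise of the list, from 1.704 ± 0.405 to 17.1 ± 6.3 copies (SD, n = 5 and 6, log2 2.82). Vps72, the H2A.Z chaperone of SRCAP, had the largest fall, from 33.4 ± 11.99 to 4.72 ± 2.96 copies (log2 −2.49).

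In the CHD and NuRD list 5 of 20 genes were higher and 8 lower from E2C to L2C, beside 25.6% and 22.8% of all genes. The median was −0.62. Rbbp7, a histone-binding subunit, fell from 270 ± 42.4 to 24.4 ± 5.71 copies (SD, n = 5 and 6, log2 −3.50, limma adjusted p = 1.05e-16). Cdk2ap1, a small NuRD subunit, rose from 4.15 ± 1.34 to 95.4 ± 18.3 copies (log2 4.28, limma adjusted p = 1.59e-14). Mta3 and Mta2, alternative scaffold subunits, were called in opposite directions from 4-cell to 8-cell. Mta3 went from 13.98 ± 12.5 to 29.5 ± 7.89 copies and Mta2 from 22.9 ± 11.9 to 8.62 ± 2.24 (SD, n = 5 and 4). Hdac2, a deacetylase of NuRD, went from 3.08 ± 1.67 to 9.36 ± 2.30 between the 8-cell and 16-cell stages, with an adjusted p of 0.129 by limma.

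In the SWI/SNF list 5 of 25 genes were higher and 4 lower from E2C to L2C, beside 25.6% and 22.8% of all genes. The median was 0.04. Dpf2, a BAF subunit that reads histone tails, rose from 1.16 ± 0.83 to 16.0 ± 6.2 copies (SD, n = 5 and 6, log2 2.97). Ss18, a BAF subunit, fell from 21.7 ± 3.4 to 4.38 ± 2.95 copies (log2 −1.97). Arid1b, the paralog of Arid1a, was called higher at the step before, from 2.70 ± 1.17 in zygotes to 7.02 ± 3.45 copies in E2C (log2 1.08). From L2C to 4-cell Bcl7b was called higher and Bcl7c lower, with adjusted p-values of 0.109 and 0.0922 by limma.

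In the ISWI list 2 of 10 genes were higher and none lower from E2C to L2C, beside 25.6% and 22.8% of all genes. Baz1a, the ACF1 partner of SNF2H, rose from 4.87 ± 1.72 to 16.3 ± 4.9 copies (SD, n = 5 and 6, log2 1.53). Baz2a, the partner of SNF2H in the nucleolar complex NoRC, was called higher from oocyte to zygote, 2.40 ± 1.33 to 6.06 ± 2.78 copies (log2 1.19). Cecr2 fell from 35.4 ± 7.0 to 18.2 ± 7.7 between L2C and 4-cell, where Pole3 was called higher, and Bptf, the NURF subunit, fell from 7.90 ± 2.49 to 2.64 ± 1.81 between 4-cell and 8-cell. Of the other SNF2 family genes, Smarcad1 rose (5.35 ± 1.56 to 18.4 ± 4.6, log2 1.65) and Hells fell (13.4 ± 6.1 to 5.15 ± 2.32, log2 −1.32) from E2C to L2C. Atrx was called lower from L2C to 4-cell (log2 −1.61), with an adjusted p of 0.0693 by limma. Its levels were 9.28 ± 6.89 and 6.37 ± 6.25 copies (SD, n = 6 and 5). Of the INO80, SRCAP and TIP60-p400 genes, Epc2 was called higher (log2 1.52) and Nfrkb lower (log2 −1.44) from zygote to E2C, and from L2C to 4-cell Epc2 was called lower (log2 −2.07) and Vps72 higher (log2 1.06). In the FACT list neither Supt16 nor Ssrp1 was called at any step.

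**Figure D3:**
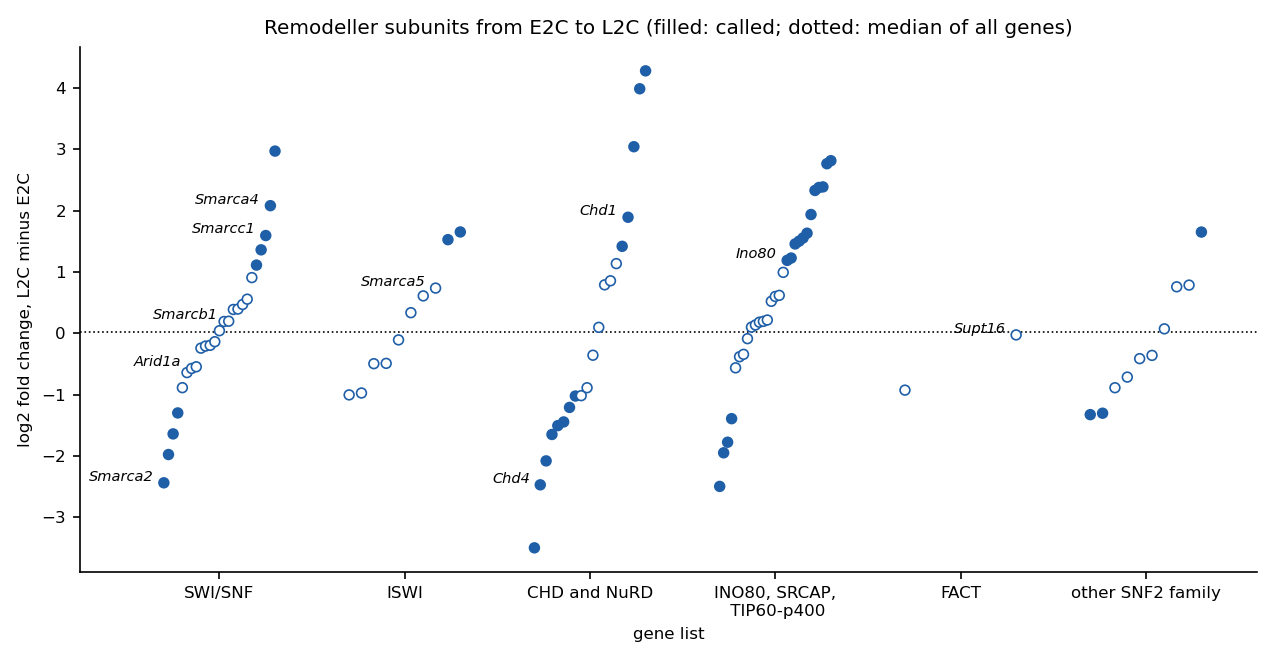
Log2 fold change from E2C to L2C (y axis) for the tested genes of 6 lists (x axis, ordered by value within a list). Filled points were called, the dotted line is the median of all genes at 0.03, and the members are named; the INO80, SRCAP and TIP60-p400 list has 12 filled points above the line and 4 below.

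The isoform table described these genes unevenly. It keeps isoforms seen in at least 5 cells, and these held 69.4% of all gene UMIs but 0.388% of those of Arid1a (9 of 2322), 2.65% of Chd1, 10.98% of Ino80, 11.6% of Supt16 and 20.2% of Smarcc1. The shares were 43.4% for Chd4, 48.0% for Smarca4, 52.7% for Smarca2, 54.8% for Smarca5 and 80.4% for Smarcb1. Most isoforms of the long genes held only the end of the coding sequence. The average isoform molecule of Smarca4 held 10.1% to 16.2% of the coding bases from oocyte to 16-cell and that of Chd4 12.4% to 15.9%, whereas that of Smarcb1, a short gene, held 76.5% to 90.3%. The most abundant Smarcb1 isoform, isoform 29 with 188 UMIs in all stages, spans all 9 exons and 97.7% of the coding sequence. Of the 89 isoforms 38 passed the filter, 17 of them from Smarca5, 7 from Chd4, 6 from Smarca4, 4 from Smarca2, 2 from Smarcb1 and 2 from Smarcc1.

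In oocytes, zygotes and 2-cell embryos, the Smarca2 isoforms in the table came mainly from an internal start. The share of Smarca2 isoform UMIs whose exons hold an annotated start codon was 90.4% in oocytes, 87.9% in zygotes, 76.1% in E2C and 64.3% in L2C. It was 25% of 4 UMIs in 4-cell embryos, 0 of 2 in 16-cell embryos, 16.7% of 6 in 32-cell cells and 25% of 8 in blastocyst cells. In the oocyte table of the fourth batch it was 44.7% to 57.1%. The isoforms with the most UMIs, 11 (127 UMIs), 12 (66) and 19 (23), begin in an alternative first exon, at chr19:26745128 to 26745194, and join the next exon by a junction that 1 annotated transcript carries. The start codon at chr19:26751851, annotated in other transcripts of the gene, is in frame with full-length BRM. From there isoform 11 reads 236 codons to the normal stop codon, and isoform 19 reads 254, because it includes the 54-base exon (chr19:26759878-26759931) that 8 annotated transcripts hold. Both hold 15.5% of the 4749 coding bases of the full-length transcript, which has 33 exons, and the ATPase domain of BRM lies before this stretch. Isoform 12 leaves the same start, ends at chr19:26774305 after 177 codons and reaches no stop codon.

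These isoforms differed in time. Isoform 12 was at 0 to 7.45 copies per 100,000 isoform UMIs in zygotes (median 2.55) and at 0, 0, 3.92, 0 and 0 in the E2C embryos, with all 5 of its E2C UMIs in embryo 3. It was called lower (log2 −1.23 ± 0.36 SE, limma adjusted p = 0.0252). Isoform 11 was at 0 to 6.25 in zygotes and at 12.1, 6.15, 17.05, 11.9 and 6.72 in E2C (log2 1.96 ± 0.39 SE, limma adjusted p = 0.000311). It was then at 0 to 1.33 in L2C embryos, a fall of 2.72 with no overlap. Isoform 19 had 2 UMIs in all zygotes together and was at 1.75, 3.37, 3.47, 2.26 and 2.52 in E2C, above every zygote (log2 1.68 ± 0.24 SE, limma adjusted p = 8.49e-07). In all, 5 member isoforms were called from zygote to E2C, where 5.18% of all 29409 isoforms were called. The others were Smarca2 isoform 88, a short 3′ piece, and Chd4 isoform 83, both higher.

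**Figure D4:**
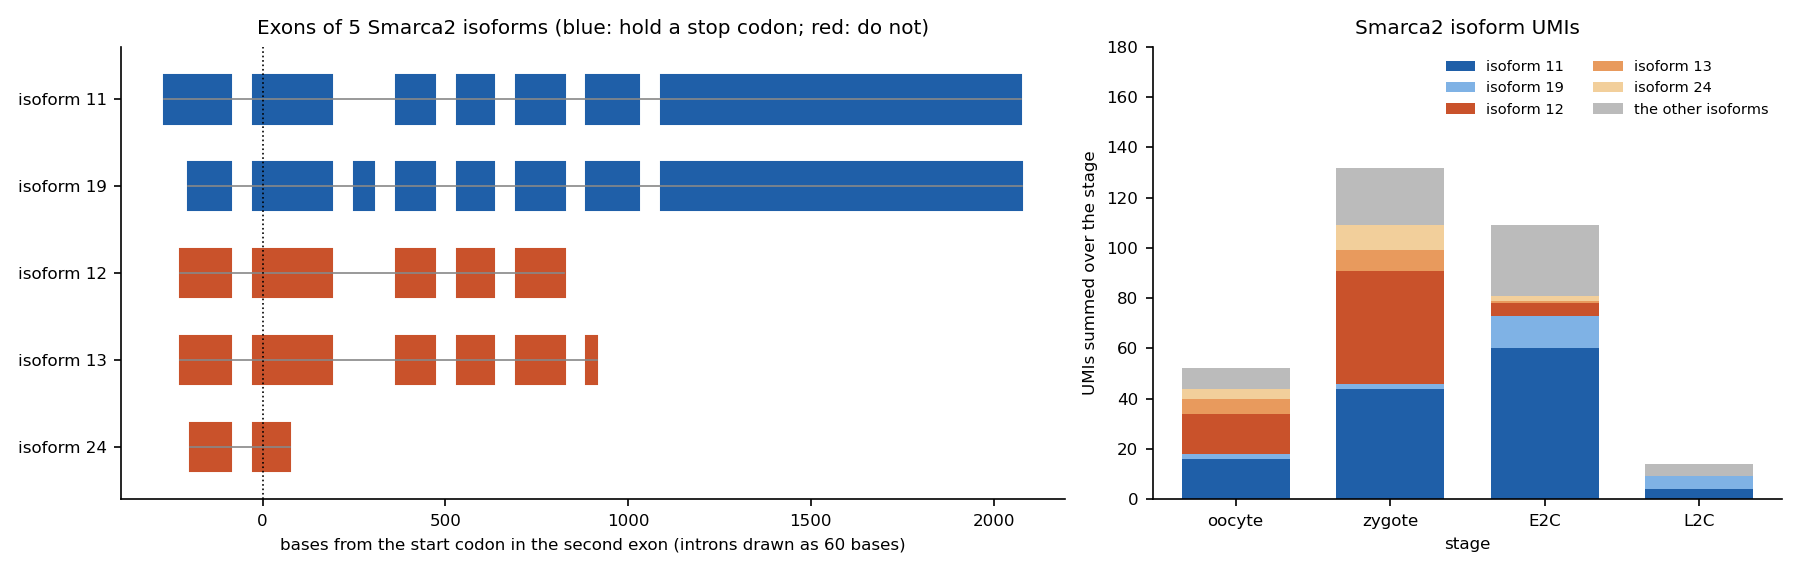
Left, exons of 5 Smarca2 isoforms in bases from the start codon in the second exon (x axis), with introns shortened; blue isoforms hold the stop codon and red ones do not. Right, Smarca2 isoform UMIs (y axis) summed over each stage (x axis): isoform 12 has 45 UMIs in zygotes and 5 in E2C, isoform 11 has 44 and 60.

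The share of Smarca2 molecules that held the stop codon was lower in oocytes and zygotes than in the embryos from E2C to 16-cell. In UMIs pooled by stage it was 52.3% of 132 in zygotes and 92.7% of 109 in E2C, and L2C held 14. The test below sets all oocytes and zygotes against all later embryos, and not zygotes against E2C alone. Over 18 oocytes and zygotes with Smarca2 isoform UMIs the share was 54.5% ± 23.7 (SD), and over 16 embryos from E2C to 16-cell it was 98.3% ± 4.998 (SD, limma adjusted p = 3.81e-08). A lower share in oocytes and zygotes was found for 31.5% of the 2003 genes tested, so Smarca2 shared it with many genes. Chd4 (93.8% and 100%, limma adjusted p = 0.00342) and Supt16 (25.0% and 83.3%, adjusted p = 0.00715) also passed. Supt16 rests on 8 isoform UMIs in oocytes, 10 in zygotes and at most 4 in any stage from E2C to 16-cell. With at least 5 UMIs in an embryo Smarca2 passed (limma adjusted p = 0.00327), Chd4 did not (adjusted p = 0.102) and Supt16 could not be tested. In a comparison of the 3′ ends themselves, added after the data had been seen, the end of isoform 12 went from 33.5% of Smarca2 UMIs in zygotes to 2.63% in E2C, and the annotated 3′ end from 46.9% to 93.4%. The E2C embryos held 100%, 90.9%, 76.3%, 100% and 100% at the annotated end and the zygotes 20.0% to 83.3% (median 44.4%). The gene-level adjusted p was 0.005965 by limma, and 4.92% of genes changed at this step. The call was lost when E2C embryo 1, 4 or 5 was left out and with a minimum of 5 UMIs. In the 4 intact oocytes of the fourth batch, a table of its own that was not part of these tests, 20 of 21 Smarca2 UMIs were at the annotated end, against 23 of 52 in the 10 oocytes of the other batches. In the same intact oocytes the pooled stop codon share was 90% for Supt16 (10 UMIs) and 99.3% for Chd4 (134 UMIs). It was 37.5% and 93.7% in the 10 oocytes of the other batches. The batch of a cell is not in its column name, and the part of the batch in these results was not tested.

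The ends without a stop codon were looked at for runs of A, where an oligo-dT primer can pair inside a transcript. Capitals mark the 20 bases after the end, which hold 14 A after isoform 24 of Smarca2 (chr19:26751897-26751946, plus strand), 13 A after isoform 17 of Chd4 (chr6:125100491-125100540, plus strand) and 10 A after isoform 58 of Supt16 (chr14, minus strand, across an intron).
Smarca2 isoform 24: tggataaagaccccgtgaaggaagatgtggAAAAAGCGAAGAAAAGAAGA
Chd4 isoform 17: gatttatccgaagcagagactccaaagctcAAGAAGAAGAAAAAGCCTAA
Supt16 isoform 58: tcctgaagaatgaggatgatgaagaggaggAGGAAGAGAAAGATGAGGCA
Over all 33061 isoform ends with 20 annotated bases behind them the median was 5 A, and 3.61% had 12 or more. Of 49 member isoforms 4 had 12 or more, the others being isoforms 13 and 23 of Smarca2, and isoform 23 holds the stop codon. Isoform 70 of Supt16 and isoform 1 of Smarcc1 also lack the stop codon. A bases were not counted there, because 20 annotated exon bases did not follow their ends. Isoform 12 of Smarca2 ends on the last base of an exon, so the next genomic bases were not analysed here, and no annotated Smarca2 transcript ends within 5 bases of it. The 40 bases before its end hold neither AATAAA nor ATTAAA, which those of 70.1% of 53280 isoforms and of 65 of 76 member isoforms do. Many member isoforms share an end, so these are counts of isoforms and not of separate ends. The cause of these ends was not tested.

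Smarca5 changed its 3′ end between E2C and L2C. Its isoforms end in 2 groups, both short of the annotated end. The distal group lies 1117 to 1118 bases after the stop codon and 1438 to 1439 bases short of the annotated end. The proximal group lies 222 to 296 bases after the stop codon and 2260 to 2334 bases short of the annotated end. The proximal sequence shown above is the end of isoforms 48 and 49, and the isoform of this group with the most UMIs, isoform 40 (115 UMIs), ends further on without AATAAA or ATTAAA in the 40 bases before its end. The distal share of Smarca5 UMIs was 28.6% to 66.7% in oocytes (median 49.4%) and 25.0% to 84.2% in zygotes (median 57.1%). It was 40%, 50%, 50%, 50% and 71.4% in E2C embryos and 0% to 33.3% (median 8.01%) in L2C embryos. All L2C embryos were below all E2C embryos, and the highest of them rests on 3 UMIs. The mean went from 52.3% to 9.89% (limma, gene-level adjusted p = 4.17e-05), at a step where 19% of genes changed. This comparison was also added after the data had been seen, and the Smarca5 call held in all of its 15 alternatives. The share was then 26.7%, 0%, 20.0%, 6.67% and 35.3% in 4-cell embryos, 35%, 50%, 66.7% and 29.4% in 8-cell embryos and 28.6%, 14.5%, 25.0% and 44.4% in 16-cell embryos. No later step was called. Over all cells of the stage, 95 of 101 Smarca5 UMIs in L2C were at the proximal group, against 22 of 46 in E2C. Oocytes of different batches had different shares as well: the distal share was 48.2% ± 14.1 (SD, n = 10) in the oocytes above and 79.4% ± 4.23 (SD, n = 4) in the intact oocytes of the fourth batch. Isoform molecules of all genes averaged 1414 bases in the former oocytes and 1890 in the latter, and 1369 in E2C and 1299 in L2C. The part of the batch and of molecule length in the E2C to L2C change was not tested.

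**Figure D5:**
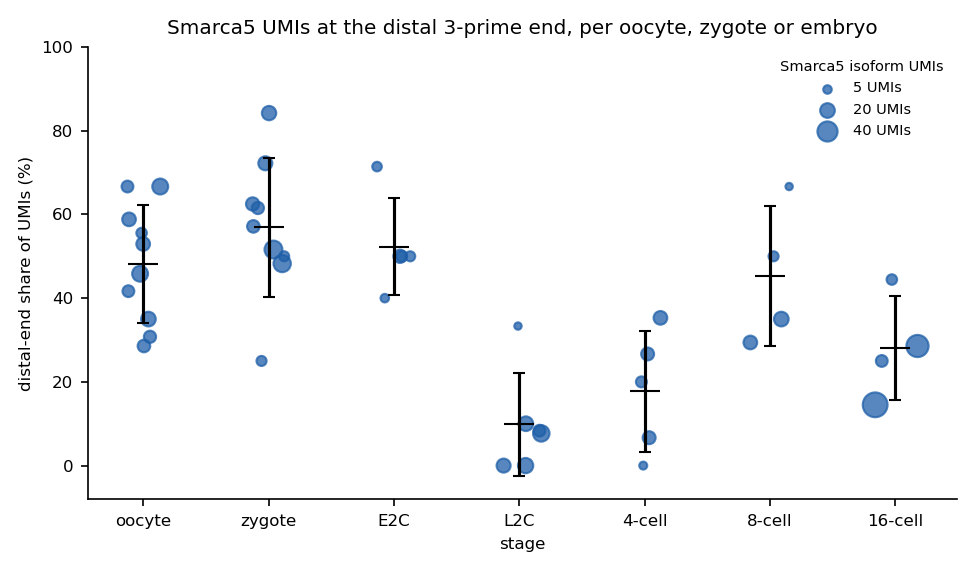
Share of Smarca5 isoform UMIs at the distal 3′ end in percent (y axis) by stage (x axis). Each point is an oocyte, zygote or embryo, its size is the number of Smarca5 UMIs, and bars are mean and SD; E2C embryos lie at 40% to 71.4% and L2C embryos at 0% to 33.3%.

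Of the member isoforms, 7 were called from E2C to L2C, where 26.0% of all isoforms were called. Chd4 isoforms 118, 122 and 83, at 2.50, 1.28 and 1.58 copies per 100,000 isoform UMIs in E2C, had no UMI in L2C, and isoform 128 fell from 3.64 to 0.482. Smarca5 isoform 50, with a proximal end, rose from 0.387 to 4.88 (log2 2.01, limma adjusted p = 0.000383), and Smarca4 isoform 123, a 2-exon 3′ piece, from 1.02 to 3.87 (log2 1.27). The seventh was Smarca2 isoform 11. Smarca4 isoform 123 was called lower from L2C to 4-cell (3.87 to 1.95, beside 4.29% of isoforms) and from 8-cell to 16-cell (2.26 to 0.346, beside 1.97%), with adjusted p-values of 0.167 and 0.163 by limma. Smarca5 isoform 45 went from 0 UMIs in 8-cell embryos to a mean of 0.973 in 16-cell embryos (limma adjusted p = 0.278). All Smarca4 isoforms with 10 or more UMIs ended 398 to 402 bases after the stop codon and 847 to 851 bases short of the annotated end. A change in isoform shares within a gene was called for 1 member, Smarca2 isoform 80 from L2C to 4-cell (1.46% of genes at that step), on 4 Smarca2 isoform UMIs in the 4-cell embryos. With at least 5 UMIs in an embryo that call was replaced by Smarca2 isoform 19, from 0.988% of Smarca2 UMIs in zygotes to 13.9% in E2C (limma adjusted p = 0.00194).

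The genes whose levels followed each member most closely over the 43 oocytes, zygotes and embryos were taken as the highest Pearson correlation on log2(copies + 1) among the other 11681 genes tested. These are descriptions, since all points share the stage and the depth of their libraries. The nearest gene was Rsl24d1 for Smarca4 (r = 0.94), Fam126b for Smarca2 (r = 0.90), Akap8l for Smarcc1 (r = 0.91), Rnf141 for Arid1a (r = 0.94), Wdyhv1 for Chd1 (r = 0.88) and Qk for Chd4 (r = 0.83). It was Ube2t for Ino80 (r = 0.72), Tmem50a for Supt16 (r = 0.71), Pfdn2 for Smarcb1 (r = 0.68) and Zfp988 for Smarca5 (r = 0.65). Among the members themselves Smarca4 went with Smarcc1 (r = 0.82) and against Chd4 (r = −0.64).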

How the data were processed

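Single oocytes, blastomeres and mESCs were profiled by HIT-scISOseq. According to the methods, the authors made circular consensus reads, found barcodes and UMIs with scISA-Tools, aligned with minimap2 to mm10, assigned reads to genes with gffcompare, collapsed isoforms with cDNA_Cupcake and filtered them with SQANTI3. Isoforms seen in under 5 cells were removed. The gene and isoform values deposited by the authors are a CPM divided by 10, copies per 100,000 mapped UMIs, and 100% of them came out as whole UMIs (tolerance 0.1). Cells held 4985 to 389775 UMIs, and intervals and floors cover counting error only.

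Cells were averaged per embryo from the column names. limma 3.58.1 with trend and array weights was fitted to log2(copies + 1) over 7 stages, for features at 1 copy or more in at least 4 embryos. Calls needed an absolute log2 fold change above 1 and p under 0.01, the limits of the study. edgeR 4.0.16 and DESeq2 1.42.0 were run on recovered UMIs, rounded to whole numbers, as alternatives, with R 4.3.3 and Python 3.11.15. Shares of isoforms, 3′ ends and stop codons within a gene were tested with limma on arcsine square root values, and a change needed an adjusted p under 0.05 for the feature and under 0.01 for its gene (stop codons: adjusted p under 0.05). Transcript coordinates and sequences came from GENCODE annotation on GRCm38, which has the coordinates of mm10. Scripts were tested on simulated data. The members and lists were chosen with earlier results of these data known. The genes named from a list are, per step, its largest called rise and fall among those at 5 copies or more in the higher stage, members aside, and per member the isoforms with the most UMIs and all called ones. 3′ ends, their sequences and the removal of single oocytes and zygotes were added after the data had been seen.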

Additional observations from a re-analysis of the deposited data

Results flagged for a closer look

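Among the 70 groups of 4 or more embryos formed by 10 genes and 7 stages, 8 held a value far from the others of its stage. The limit used is made to flag about 5% of groups of normally distributed values. Several of the flagged values rest on few UMIs, for which that rate does not hold. The 8 values were not tested against counting error. In oocytes Smarcb1 was at 9.58 copies per 100,000 in oocyte 6 (23 UMIs), and the next value was 2.07. Smarcc1 was at 0.930 in zygote 6 (3 UMIs). In E2C embryos Ino80 was at 4.79 in embryo 1 (8 UMIs) and Chd1 at 3.22 in embryo 5 (2 UMIs). Chd1 was at 0 in L2C embryo 1, the single shallow cell, and at 24.7 in 4-cell embryo 2 (7 UMIs). Arid1a was at 29.1 in 4-cell embryo 1 (32 UMIs). Smarca2 was at 0.395 in 8-cell embryo 4 on 1 UMI, with the 3 other embryos at 0.

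The fourth batch, which holds intact and divided oocytes in an isoform table of its own, entered no comparison of stages. Its 4 intact oocytes held 347 isoform UMIs of Arid1a, 317 of Smarca5, 134 of Chd4, 45 of Ino80, 21 of Smarca2, 13 of Smarcb1, 10 of Supt16 and 4 of Chd1. Per 100,000 isoform UMIs, Arid1a was at 32.4 to 44.8 there (median 37.6) and at 0 to 0.771 in the 10 oocytes of the other batches, and Smarca5 was at 22.4 to 43.8 and 6.47 to 20.0. Isoform molecules of all genes averaged 1890 bases in these intact oocytes and 1414 in the oocytes of the other batches, and the Arid1a isoform has 4012 bases. The tables were made separately, and no test was run between them.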

How the results depend on the processing

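Of the 11 called gene changes, 6 kept direction and call in every alternative run: Smarca4 (both), Smarca2 between zygote and E2C and again between E2C and L2C, Chd4, and Arid1a. Chd1 and Smarcc1 from E2C to L2C, and Smarca2 and Smarcc1 from oocyte to 16-cell, each lost the call in 1 alternative, and Ino80 lost it in 14 of 33 (log2 0.66 to 1.45). No call turned direction. Without L2C embryo 1, Smarcc1, Chd1, Chd4 and Ino80 stayed called at 1.73, 2.04, −2.37 and 1.33. Of 338 alternatives for the counts, 295 stayed within 1.5 times the reported count. From oocyte to zygote 1 member was called in place of 0 with a pseudocount of 0.5, a filter at 5 copies, TMM factors, edgeR, or an adjusted p under 0.05 alone, and 0 to 1 when oocytes 1, 3 and 5, zygotes 3, 7, 8 and 9 or any other embryo was left out in turn. From zygote to E2C 2 were called with a pseudocount of 0.5. From E2C to L2C 3 were called with a pseudocount of 5, and 5 to 6 with an embryo left out. From L2C to 4-cell 1 was called with a pseudocount of 0.5, a filter at 5 copies, no array weights or edgeR, and 0 to 1 with an embryo left out (1 without E2C embryo 5, L2C embryo 6 or 4-cell embryo 1, 2 or 3). From 4-cell to 8-cell 1 was called with no array weights, and 0 to 2 with an embryo left out (2 without 4-cell embryo 4 and 1 without 8-cell embryo 2). From oocyte to 16-cell 2 were called with a pseudocount of 5, 7 by DESeq2 and 8 at an adjusted p under 0.05 alone. For member isoforms, oocyte to zygote gave 1 with a pseudocount of 0.5 and 3 with edgeR. Zygote to E2C and E2C to L2C gave 1 each with a filter at 5 copies, which left 2 member isoforms to test. L2C to 4-cell gave 0 with a pseudocount of 0.5, the filter at 5 copies or edgeR and 2 with no array weights, and 8-cell to 16-cell gave 0 with that filter. The stop codon share gave 1 member with at least 5 UMIs. The 3′ ends gave 1 member with at least 5 UMIs, and 1 to 2 with an embryo left out (1 without E2C embryo 1, 4 or 5). The causes were not tested. Over all genes, edgeR called 779 from oocyte to zygote against 379 by limma, and DESeq2 called 487 from L2C to 4-cell against 782 and 220 from 8-cell to 16-cell against 393. A fit with the batch as a block was not made, because the column names do not give the batch of a cell. No paired analysis was possible because no source used here says which embryos share an animal, or that a number repeated at several stages links them. Genes of a few UMIs per embryo, such as Chd1, Ino80 and Supt16, are limited by depth.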

Other observations

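The spread between cells of an embryo was set against Poisson counting error for each member and stage. The ratio of the 2 was 3.68 for Arid1a (49 UMIs) and 2.59 for Smarcc1 (20 UMIs) in blastocyst cells, where the embryo is not named and cells of different embryos and lineages are mixed. It was 2.15 for Chd1 in E2C (8 UMIs) and 2.13 for Arid1a in L2C (145 UMIs), each with 5 degrees of freedom. These are the highest ratios of all members and stages, and many others were near or below 1. The lowest was 0.145, for Smarcb1 in mESCs (9 UMIs), and Arid1a in E2C was at 0.487 (303 UMIs). These are values with no test.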
